A study of Mus musculus with 5 samples.

Results

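The cytochrome P450 genes described here are the 36 protein-coding genes with values in all 5 deposited libraries whose mouse symbol reads Cyp, 1 digit, 1 letter and a further digit, out of 21019 genes with values. The annotation at hand lists 83 such genes, 39 of them have a row in the table, and 3 of these 39 (*Cyp2b10*, *Cyp2b19* and *Cyp2b23*) carry no value. The symbol rule used no measured value, but a gene also needed a row with values after the authors' filter on low read counts, and a gene with no read in the controls could meet that filter only through its *Pfn1*-KO reads. By family there were 2 genes of family 1, 21 of family 2, 1 of family 3, 11 of family 4 and 1 of family 7.

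Translating ribosome affinity purification (TRAP) RNA-Seq was performed on kidney cortex of *Pfn1*-KO TRAP mice (*Pfn1* fl/fl, with the alleles Pod-Cre, Rosa-Dtr fl and GFP-L10a) and of control TRAP mice (*Pfn1* +/+, with the same 3 alleles) at 3 weeks of age. Both groups thus carried the podocin-driven Cre, the floxed diphtheria toxin receptor allele and the GFP tag on the ribosomal protein L10a. Cre under the podocin promoter limits the tag, and in *Pfn1*-KO mice the loss of *Pfn1* exon 1, to podocytes, the epithelial cells of the kidney filter. There were 3 samples labelled *Pfn1*-KO and 2 control samples, each a pool of 3 mice. The libraries are called KO N2, KO N3 and KO N4 and control N1 and control N3 after the columns of the table, and values are always given in that order.

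P450 enzymes are haem proteins of the endoplasmic reticulum that insert an oxygen atom into fatty acids, sterols, retinoids, drugs and toxins, with electrons passed on by partner proteins such as P450 oxidoreductase (*Por*). In the kidney they are best known from the proximal tubule, where family 4 enzymes hydroxylate the end of fatty acid chains, including arachidonic acid, and Cyp2c and Cyp2j enzymes turn arachidonic acid into epoxides.

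The libraries differed widely before any P450 gene was considered. FPKM is a count of fragments divided by gene length and by library size. It was above 0 for 20435 to 20980 genes in the *Pfn1*-KO-labelled libraries, against 6901 and 7528 genes in the controls. Yet all libraries held an estimated 18186900 to 24871893 reads, sizes worked out from the FPKM values themselves. A single ribosomal RNA gene took 0.126%, 24.5% and 0.085% of all FPKM in the *Pfn1*-KO-labelled libraries, against 52.0% and 58.9% in the controls. *Pfn1* itself was at 41.9, 17.2 and 27.8 FPKM in the *Pfn1*-KO-labelled libraries, against 13.6 and 11.8 FPKM in the controls (log2 fold change 1.05, standard error 0.56, limma adjusted p = 0.123), so it was not lower in FPKM as deposited; reads of the deleted exon and of the other exons are summed in it. The direction of *Pfn1* depended on the scaling, at -0.70 after median-ratio scaling (limma adjusted p = 0.214), -0.36 after quantile normalization (limma adjusted p = 0.595) and 0.017 after rescaling to nuclear protein-coding genes, and it was called higher with array weights (1.52, limma adjusted p = 0.0158) and without KO N3 (1.36, limma adjusted p = 0.0463) and lower in no alternative run. Of 14631 genes tested, 70.1% were called higher and 2.13% lower, with a median log2 fold change of 1.75, so each P450 result has to be read against that shift. After quantile normalization, which brings the distributions of the libraries together, the median was -0.09 and the calls were 1023 higher and 1806 lower. Genes at 0 in a control were tied there and took a shared level above 0, which can turn the fold change of low genes below 0.

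P450 genes were read in every *Pfn1*-KO-labelled library, and most had no read in the controls, where fewer genes of all kinds were read. All 36 genes were above 0 in each of the 3 *Pfn1*-KO-labelled libraries, against 6 genes in control N1 and 5 in control N3. The authors' filter on low read counts favours this for genes without control reads. Of 15046 protein-coding genes with values, 15035, 14879 and 15023 were above 0 in the *Pfn1*-KO-labelled libraries, against 6252 and 6825 in the controls. The summed FPKM of the 36 P450 genes was 787, 532 and 624 in the *Pfn1*-KO-labelled libraries, against 21.3 and 7.44 in the controls. Set against all nuclear protein-coding FPKM, this was 0.414%, 0.359% and 0.367% in the *Pfn1*-KO-labelled libraries, against 0.0288% and 0.00869% in the controls. The groups did not overlap in either measure. In bulk samples, fewer cells of a type and less RNA per cell cannot be told apart.

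**Figure D1:**
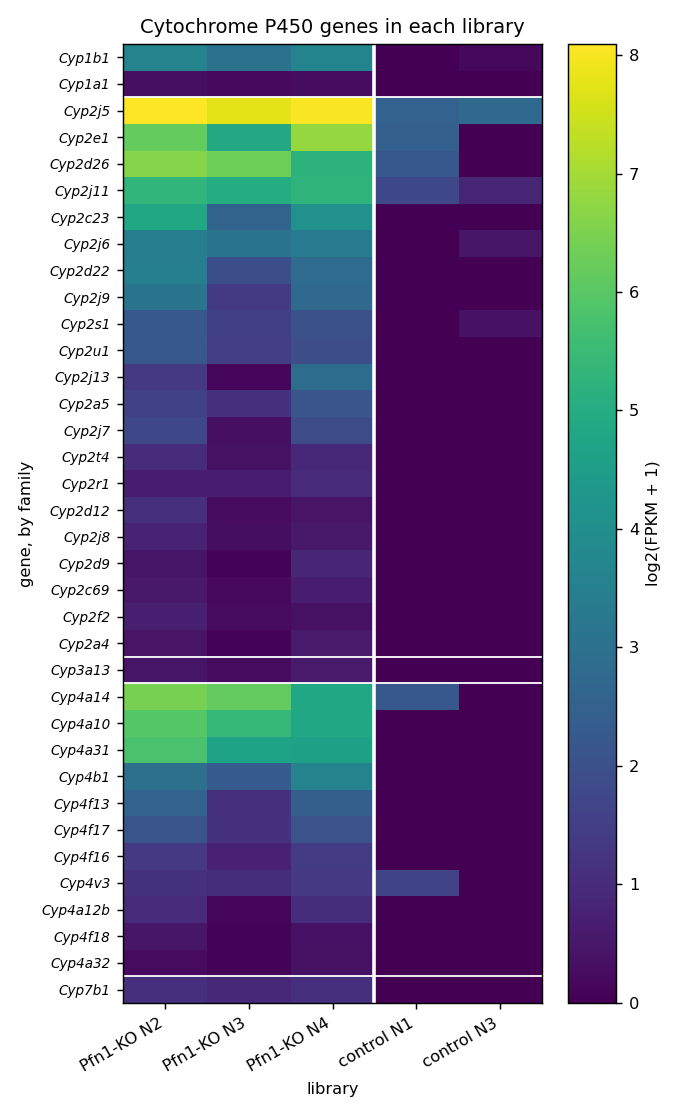
Heat map of log2(FPKM + 1) for the 36 P450 genes (rows, by family and then by mean level in the *Pfn1*-KO-labelled libraries) in the 5 libraries (columns, *Pfn1*-KO left of the white line, controls right of it). *Cyp2j5* is brightest, at 217 to 272 FPKM in the *Pfn1*-KO columns against 4.80 and 5.85 FPKM in the controls, and most control cells are at 0.

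Of the 36 genes, 23 reached 1 FPKM in at least 2 libraries and were tested, and 20 of these rose (adjusted p under 0.05 in limma with Benjamini-Hochberg adjustment over all genes tested), 0 fell and 3 passed in neither direction. The background was 70.1% of all tested genes called higher, and since a gene could reach the filter through its *Pfn1*-KO values alone, the 23 tested genes are not a neutral sample of the family. The count of 0 genes called lower came from limma and stayed 0 at an unadjusted p under 0.05 and in limma-voom on reads recovered from the FPKM, which called 19 of the 23 genes higher, beside 49.6% of all genes. Median-ratio scaling called 20 of the 23 higher, beside 46.9% of all genes. Without any filter on low values, 26 of the 36 genes were called higher, beside 56.8% of 21019 genes. For 35 of the 36 genes every *Pfn1*-KO-labelled value exceeded both control values, beside 81.1% of all genes, and 27 genes were listed at 0 in both controls while above 0 in every *Pfn1*-KO-labelled library, beside 51.6% of all genes and 41.6% of protein-coding genes. The median log2 fold change of the 23 tested genes was 2.76, beside 1.75 for all genes tested, and 16 of the 23 lay above that median of all genes. Both medians include genes at 0 in both controls, whose fold changes depend on the pseudocount. For P450 genes and all genes they were 5.37 and 3.79 with a pseudocount of 0.1, and 1.14 and 0.698 with a pseudocount of 5. Quantile normalization took the count called higher to 5 genes (*Cyp2j5*, *Cyp2j11*, *Cyp2d26*, *Cyp4a10* and *Cyp4a31*), beside 6.99% of all genes, and turned *Cyp2a5*, *Cyp2s1*, *Cyp4f16* and *Cyp7b1* to values below 0 that did not pass the test.

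Markers of other kidney cells are given beside the share of all tested genes called higher, 70.1% as deposited and 6.99% after quantile normalization. Proximal tubule markers rose in 22 of 24 genes (14 after quantile normalization), and their summed level was 4567 to 8577 FPKM in the *Pfn1*-KO-labelled libraries, against 324 to 748 FPKM in the controls, with *Slc6a19*, *Mep1a*, *Acsm3* and *Slc22a30* at 0 in both controls. Thick limb and distal tubule markers rose in 9 of 10 tested genes (8 after quantile normalization), at 523 to 860 FPKM in the *Pfn1*-KO-labelled libraries and 112 to 179 FPKM in the controls, with *Umod*, *Kcnj1*, *Pvalb*, *Cldn10* and *Cldn16* at 0 in both controls. Podocyte markers rose in 13 of 18 genes, near the share of all genes, with 1 higher after quantile normalization and 4 higher and 1 lower after median-ratio scaling, at 334 to 895 FPKM in the *Pfn1*-KO-labelled libraries and 148 to 194 FPKM in the controls, with *Tcf21* and *Rhpn1* at 0 in both controls. Hepatocyte markers rose in 3 of 4 tested genes (1 after quantile normalization), at 21.1 to 38.6 FPKM in the *Pfn1*-KO-labelled libraries and 0 and 4.87 FPKM in the controls, with *Apoa1*, *Fgb*, *Ttr*, *Serpina1a* and *Serpina1b* at 0 in both controls. Tubular markers were thus read in every library of a podocyte pulldown, and their part in the P450 values was not tested. Endothelial markers rose in 8 of 10 tested genes and in 3, with 1 lower, after quantile normalization (88.6 to 130 FPKM in the *Pfn1*-KO-labelled libraries, 10.2 to 12.5 FPKM in the controls), collecting duct markers in 7 of 10 (3 higher and 1 lower after quantile normalization), mesangial and smooth muscle markers in 5 of 7 (1 after it) and immune markers in 1 of 7 (0 after it). The immune list was the one marker list whose summed level was highest in a control, and this held for control N1 only. Its sum was 521 FPKM in control N1 and 9.29 FPKM in control N3, against 10.9 to 99.8 FPKM in the *Pfn1*-KO-labelled libraries. *Lyz2* alone held 458 FPKM of the control N1 sum.

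Family 2 held the leading gene. *Cyp2j5*, an epoxygenase of arachidonic acid that is abundant in mouse kidney, lies on the minus strand of chromosome 4 from 96628773 to 96664154 (GRCm38). It was at 272, 217 and 262 FPKM (14742, 12669 and 11176 reads) in the *Pfn1*-KO-labelled libraries, against 4.80 and 5.85 FPKM (267 and 313 reads) in the controls. Its values in the *Pfn1*-KO-labelled libraries were close together and far above both controls, and its log2 fold change on the log2(FPKM + 1) scale was 5.31 (standard error 0.53, limma adjusted p = 0.0015). *Cyp2j5* alone made up 34.6%, 40.8% and 42.0% of all P450 FPKM in KO N2, KO N3 and KO N4, and it was the one gene of the family whose *Pfn1*-KO values did not overlap those of the gene next below it. The call held under quantile normalization (4.26, limma adjusted p = 0.00946).

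Promoter stretches of 30 bases, from RefSeq on GRCm38.p6, are shown for the 6 members with TATAAA, on either strand, close to the start. Further stretches are shown for *Cyp2j5* as the member with the highest level, and for *Cyp1a1* and *Cyp1b1* around the motif of a well known regulator. Letters run 5′ to 3′ along the gene and capitals mark the motif searched, on either strand. *Cyp2j5* carries AGGTCA, the half-site of nuclear receptors, 197 bases before its start, and *Cyp1a1* and *Cyp1b1* carry GCGTG, the core of the element bound by the aryl hydrocarbon receptor.
Cyp2j5: ctggaaaacagcAGGTCAaagactggggtc
Cyp2e1: tcaacgacacgtTATAAAatccttgtttct
Cyp2d26: ccctcctccctcTTTATAagggaccaggtt
Cyp2d9: ccctggcactccTTTATAaggtgacaggat
Cyp2a5: tgtctctggatgTATAAAagcaagctaatt
Cyp2a4: tgtctctggatgTATAAAagcaagctaatt
Cyp1a1: gacacagagtccTATAAAggtggtggtgcc
Cyp1a1: tcagataaggagGCGTGgccaacagacaca
Cyp1b1: cgtcccgcccctCACGCcccaccccctaag

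These stretches lie at chr4:96664299-96664328 (*Cyp2j5*, minus strand), chr7:140763776-140763805 (*Cyp2e1*, plus), chr15:82794259-82794288 (*Cyp2d26*, minus), chr15:82452337-82452366 (*Cyp2d9*, plus), chr7:26835298-26835327 (*Cyp2a5*, plus), chr7:26307152-26307181 (*Cyp2a4*, plus), chr9:57697571-57697600 and chr9:57697547-57697576 (*Cyp1a1*, plus) and chr17:79715120-79715149 (*Cyp1b1*, minus). RefSeq windows of 250 bases before the start were found for 25 of the 36 genes, with 26 windows in all. TATAAA, read on both strands, was in 8 of the 26 windows (30.8%), beside 12.4% of all 32851 windows, and 6 genes had it 20 to 35 bases before the start, namely *Cyp1a1*, *Cyp2a4*, *Cyp2a5*, *Cyp2d9*, *Cyp2d26* and *Cyp2e1*. In *Cyp2d9* and *Cyp2d26* it lies on the strand opposite to the gene. AGGTCA was in 11.5% of the P450 windows and 14.0% of all windows, GCGTG in 26.9% and 28.2%, and CCAAT in 38.5% and 33.9%. The *Cyp2a4* and *Cyp2a5* windows were 98.4% identical and their stretches read the same. An HNF1 site was found in 0 of the 26 windows, an HNF4 site in 1 (*Cyp2c69*) and a direct repeat of the receptor half-site in 1 (*Cyp2d9*), beside 0.103%, 0.384% and 0.338% of all windows. The motifs in capitals do not overlap each other. A match is a description of these letters and not a site of binding.

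The other Cyp2j genes lie beside *Cyp2j5* in a cluster of 7 members on chromosome 4 between 96027534 and 96664154. The summed level of the cluster was 334, 259 and 324 FPKM in the *Pfn1*-KO-labelled libraries, against 7.16 and 7.01 FPKM in the controls. *Cyp2j11* was at 39.0, 31.4 and 37.1 FPKM in the *Pfn1*-KO-labelled libraries, against 2.36 and 0.777 FPKM in the controls, and rose with a log2 fold change of 3.91 (standard error 0.49, limma adjusted p = 0.00157). Together with *Cyp2j5* it was one of the only 2 members read in all 5 libraries. *Cyp2j6* was at 10.1, 7.72 and 9.38 FPKM in the *Pfn1*-KO-labelled libraries, against 0 and 0.389 FPKM in the controls, and rose with a log2 fold change of 3.09 (standard error 0.37, limma adjusted p = 0.00152).

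The remaining Cyp2j genes were listed at 0 in both controls, so no fold change is given. *Cyp2j9* was at 7.63, 1.58 and 5.80 FPKM in the *Pfn1*-KO-labelled libraries and was called higher (limma adjusted p = 0.00934). *Cyp2j13* was at 1.52, 0.0857 and 6.31 FPKM there, the widest spread of the family, and did not pass the test (limma adjusted p = 0.117). *Cyp2j7* was at 2.40, 0.265 and 2.61 FPKM and did not pass either (limma adjusted p = 0.0516). Both had only 10 reads in KO N3, and without KO N3 both were called higher (limma adjusted p = 0.0463 for *Cyp2j13* and 0.000974 for *Cyp2j7*), as they were with array weights, after TPM rescaling and in limma-voom on recovered reads. *Cyp2j8* stayed under the filter at 0.744, 0.239 and 0.473 FPKM. The cluster thus ran from *Cyp2j5*, above 217 FPKM in each of these libraries, down to *Cyp2j8*, below 1 FPKM.

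*Cyp2e1*, which oxidises ethanol and other small solvents and activates several toxins, was at 72.0, 28.7 and 112 FPKM in the *Pfn1*-KO-labelled libraries, against 4.61 and 0 FPKM in the controls. KO N3 was lowest by a wide margin, yet still above both controls, and the log2 fold change was 4.72 (standard error 0.91, limma adjusted p = 0.00503). The call was lost in limma-voom on recovered reads (8.02, adjusted p = 0.0663) and under quantile normalization (3.43, limma adjusted p = 0.0578). *Cyp2d26*, of the subfamily that oxidises many drugs, was at 97.6, 77.7 and 36.3 FPKM in the *Pfn1*-KO-labelled libraries, against 3.65 and 0 FPKM in the controls. Here KO N4 was lowest, and the log2 fold change was 4.94 (standard error 0.80, limma adjusted p = 0.00283). *Cyp2c23*, an arachidonic acid epoxygenase of the kidney, was at 27.5, 4.92 and 16.1 FPKM in the *Pfn1*-KO-labelled libraries and was listed at 0 in both controls (limma adjusted p = 0.00377). *Cyp2s1*, an enzyme of epithelia, was at 3.69, 1.92 and 3.02 FPKM in the *Pfn1*-KO-labelled libraries, against 0 and 0.302 FPKM in the controls. It rose with a log2 fold change of 1.74 (standard error 0.36, limma adjusted p = 0.00616), close to the median of all genes, a call lost in limma-voom on recovered reads (6.28, adjusted p = 0.0928) and after quantile normalization (-0.31, limma adjusted p = 0.489).

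**Figure D2:**
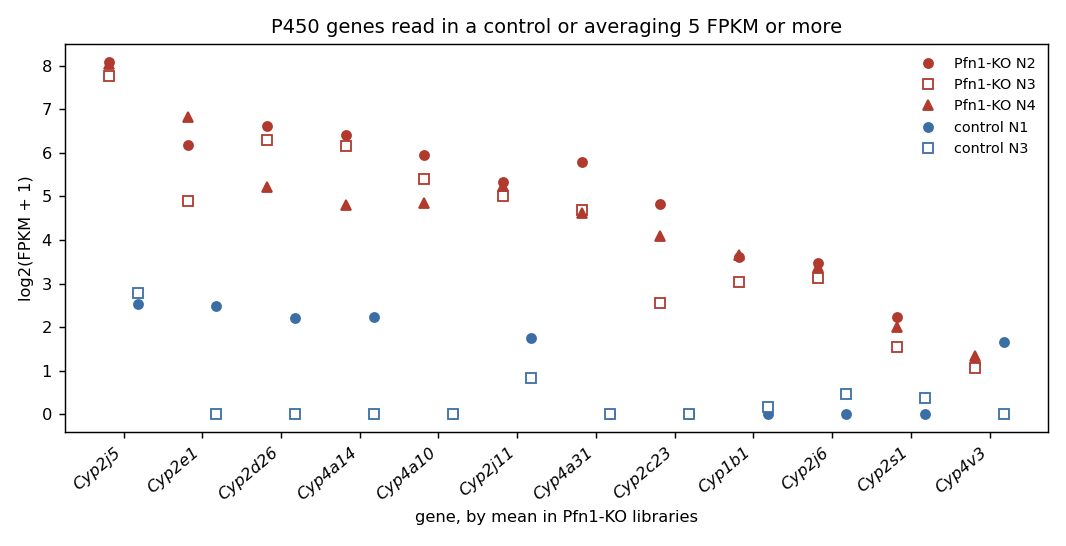
Level of 12 P450 genes, as log2(FPKM + 1), in each of the 5 libraries (red, labelled *Pfn1*-KO; blue, control; markers give the library). The 12 averaged at least 5 FPKM over the libraries or were read in a control, and only for *Cyp4v3* does a control point, at 2.14 FPKM, lie above the *Pfn1*-KO points at 1.09 to 1.53 FPKM.

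The rest of family 2 was listed at 0 in both controls. *Cyp2d22*, a mouse relative of the main human drug-oxidising enzyme of subfamily 2D, was at 10.4, 2.87 and 6.13 FPKM in the *Pfn1*-KO-labelled libraries (limma adjusted p = 0.00413). *Cyp2u1*, a fatty acid hydroxylase, was at 3.71, 1.76 and 2.77 FPKM there (limma adjusted p = 0.00437). *Cyp2a5*, known in mouse liver for hydroxylating coumarin, was at 2.00, 1.20 and 3.40 FPKM (limma adjusted p = 0.00958). These 3 genes passed the test against controls without a read. Below the filter, *Cyp2t4* ran from 0.292 to 1.05 FPKM, *Cyp2r1* from 0.532 to 0.936, *Cyp2d12* from 0.187 to 1.15, *Cyp2d9* from 0.0454 to 0.828, *Cyp2c69* from 0.165 to 0.547, *Cyp2f2* from 0.179 to 0.620 and *Cyp2a4* from 0.0463 to 0.506 FPKM across the *Pfn1*-KO-labelled libraries. *Cyp2r1* makes the circulating form of vitamin D in the liver, *Cyp2d9* hydroxylates testosterone in male mouse liver, and *Cyp2f2* is a lung enzyme that activates naphthalene.

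Family 4 followed, again led by neighbours on chromosome 4. Its summed level was 219, 145 and 103 FPKM in the *Pfn1*-KO-labelled libraries, against 5.85 and 0 FPKM in the controls. The Cyp4a and *Cyp4b1* genes form a cluster of 6 members between 115411624 and 115647723. *Cyp4a14*, a target of the fatty acid receptor *Ppara* in liver and kidney, was at 84.7, 70.7 and 27.0 FPKM in the *Pfn1*-KO-labelled libraries, against 3.71 and 0 FPKM in the controls. It rose with a log2 fold change of 4.68 (standard error 0.84, limma adjusted p = 0.00382), lost in limma-voom on recovered reads (8.30, adjusted p = 0.0579) and under quantile normalization (3.25, limma adjusted p = 0.0601). *Cyp4a10*, a further *Ppara* target, was at 61.0, 41.0 and 27.9 FPKM in the *Pfn1*-KO-labelled libraries (2971, 2152 and 1070 reads) and listed at 0 in both controls (limma adjusted p = 0.0015). For scale, 3 reads, a usual upper limit for a count of 0 by counting error alone, would be 0.0600 and 0.0623 FPKM of *Cyp4a10* in control N1 and control N3. P450 reads in the controls came in blocks, so this limit may be too low there. *Cyp4a31* was at 54.0, 24.7 and 23.7 FPKM in the *Pfn1*-KO-labelled libraries and listed at 0 in both controls (limma adjusted p = 0.0015).

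*Cyp4a10* and *Cyp4a31* were called under quantile normalization too. Across the *Pfn1*-KO-labelled libraries, *Cyp4a10*, *Cyp4a14* and *Cyp4a31* were highest in KO N2 and lowest in KO N4, and *Cyp2d26* was the only other P450 gene that was lowest in KO N4. *Cyp4b1*, which oxidises fatty acids and plant toxins in lung and kidney, was highest in KO N4 instead, at 6.91, 4.06 and 11.3 FPKM in the *Pfn1*-KO-labelled libraries with 0 in both controls (limma adjusted p = 0.00241). *Cyp4a12b*, whose close relative makes the vasoconstrictor hydroxylated arachidonate in male mouse kidney, was at 0.940, 0.101 and 1.10 FPKM and was not tested, like *Cyp4a32* at 0.169, 0.0524 and 0.286 FPKM.

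The Cyp4f genes, whose enzymes act on leukotrienes and long fatty acids, were below *Cyp4a14*, *Cyp4a10* and *Cyp4a31* in every *Pfn1*-KO-labelled library. *Cyp4f13*, *Cyp4f17* and *Cyp4f16*, which lie in one region of chromosome 17, were listed at 0 in both controls. *Cyp4f13* was at 4.87, 1.14 and 4.47 FPKM in the *Pfn1*-KO-labelled libraries (limma adjusted p = 0.0121), *Cyp4f17* at 3.29, 1.25 and 3.18 FPKM (0.00787 by the same test) and *Cyp4f16* at 1.54, 0.681 and 1.74 FPKM (0.0179). All 3 were called higher, but *Cyp4f13* was lost without KO N2 (limma adjusted p = 0.0593) or without KO N4 (limma adjusted p = 0.0559), and *Cyp4f16* was lost without any 1 of KO N2, KO N4, control N1 and control N3 (limma adjusted p = 0.0670 to 0.105). *Cyp4f18*, a leukotriene hydroxylase of neutrophils, ran from 0.0650 to 0.397 FPKM and was not tested.

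*Cyp4v3*, the mouse counterpart of a human retinal fatty acid hydroxylase, was the exception of the family. It was at 1.26, 1.09 and 1.53 FPKM (111, 103 and 106 reads) in the *Pfn1*-KO-labelled libraries, against 2.14 and 0 FPKM (193 and 0 reads) in the controls. The groups overlapped, with control N1 above and control N3 below every *Pfn1*-KO-labelled library, and the log2 fold change of 0.37 did not pass the test (standard error 0.51, limma adjusted p = 0.524). On the annotation a further protein-coding gene, *Gm45753*, overlaps *Cyp4v3* on the same strand, and 5.77% of its 100-base transcript windows are shared with it.

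**Figure D3:**
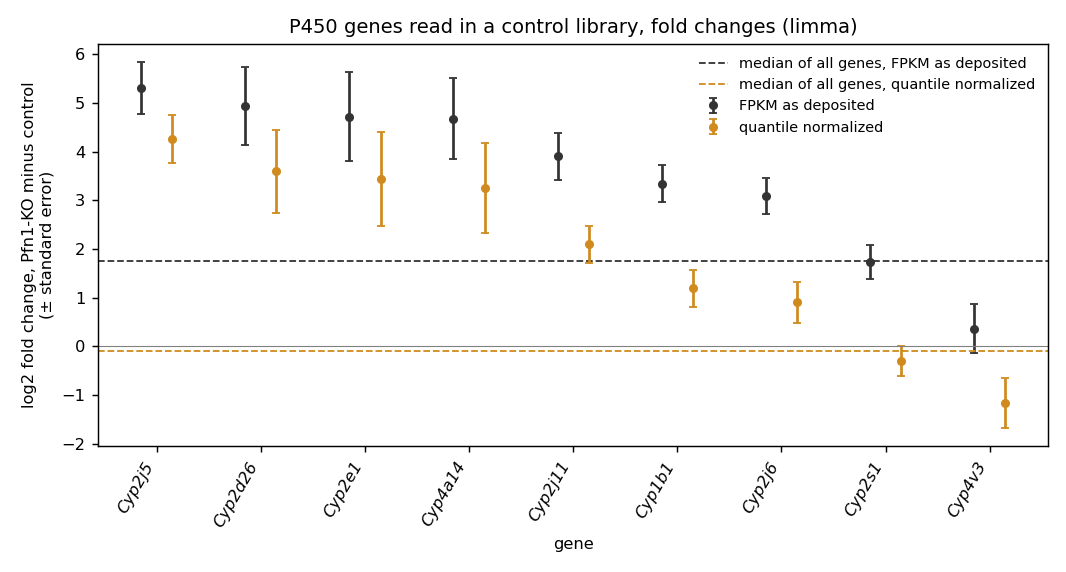
Log2 fold change, *Pfn1*-KO minus control with its standard error, for the 9 P450 genes read in at least 1 control, from limma on log2(FPKM + 1) as deposited (black) and after quantile normalization (orange); dashed lines are the medians of all 14631 genes tested. Black points of 7 genes lie well above the dashed line at 1.75, *Cyp2s1* at 1.74 lies on it and *Cyp4v3* at 0.37 below it.

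Families 1, 3 and 7 held 4 genes. *Cyp1b1*, which oxidises polycyclic hydrocarbons and oestrogens, lies on the minus strand of chromosome 17 from 79701537 to 79715061 (GRCm38). It was at 11.2, 7.17 and 11.7 FPKM in the *Pfn1*-KO-labelled libraries, against 0 and 0.128 FPKM in the controls, and rose with a log2 fold change of 3.35 (standard error 0.39, limma adjusted p = 0.0015). Quantile normalization ended that call (1.20, limma adjusted p = 0.0789). *Cyp1a1*, the classic inducible target of the aryl hydrocarbon receptor, was at 0.264, 0.144 and 0.197 FPKM in the *Pfn1*-KO-labelled libraries and listed at 0 in both controls, too low to test. *Cyp3a13*, of the drug and steroid family, was at 0.381, 0.177 and 0.502 FPKM with 0 in both controls, also not tested. *Cyp7b1*, an oxysterol hydroxylase of bile acid synthesis, was at 1.18, 0.910 and 1.17 FPKM in the *Pfn1*-KO-labelled libraries and 0 in both controls (limma adjusted p = 0.0130), a call lost without either control (limma adjusted p = 0.125 in each case).

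P450 genes in the controls were present in blocks of reads or not at all. In control N1 the 6 genes read were *Cyp2j5*, *Cyp2e1*, *Cyp4a14*, *Cyp4v3*, *Cyp2d26* and *Cyp2j11*, with 107 to 267 reads, and in control N3 the 5 genes read were *Cyp2j5*, *Cyp2j11*, *Cyp2s1*, *Cyp2j6* and *Cyp1b1*, with 17 to 313 reads. The lowest count above 0 in a control was thus 17 reads, for *Cyp1b1*. In KO N3, by contrast, *Cyp4a32* and *Cyp2a4* were listed with 2 reads each. *Cyp2e1*, *Cyp2d26* and *Cyp4a14* were each among the 4 highest by mean level in the *Pfn1*-KO-labelled libraries and each was read in control N1 only, whereas *Cyp4a10* and *Cyp4a31*, at similar levels in the *Pfn1*-KO-labelled libraries, had no read in either control.

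Within the *Pfn1*-KO-labelled libraries, KO N3 was lowest for most P450 genes, chiefly for those at low levels. It held the lowest value for 31 of the 36 genes (86.1%), beside 71.6% of 14843 nuclear protein-coding genes, and the highest value for 0; KO N2 was highest for 21 and KO N4 for 15. The ratio of KO N3 to the mean of KO N2 and KO N4 had a median of 0.397 over the 36 genes, beside 0.599 over nuclear protein-coding genes, 0.666 over proximal tubule markers and 1.88 over podocyte markers. Among the 28 genes averaging under 10 FPKM in these libraries, KO N3 was lowest for 27. It was lowest for 4 of the 8 more abundant genes, and for these the median ratio was 0.819, above that of nuclear protein-coding genes. The comparison with nuclear protein-coding genes was not matched for level. *Cyp2j13* had the lowest ratio (0.0219), and *Cyp4a14* (1.27) and *Cyp2d26* (1.16) were the 2 genes above 1. Members with the next lowest ratios after *Cyp2j13* were *Cyp2d9* (0.0755), *Cyp4a12b* (0.0987), *Cyp2j7* (0.106) and *Cyp2a4* (0.108). KO N3 was also the *Pfn1*-KO-labelled library with 24.5% of FPKM in a single ribosomal RNA gene. Mitochondrial genes took 1.13% of its FPKM, beside 17.9% in KO N2 and 11.2% in KO N4. The part of these differences in the P450 values was not tested.

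**Figure D4:**
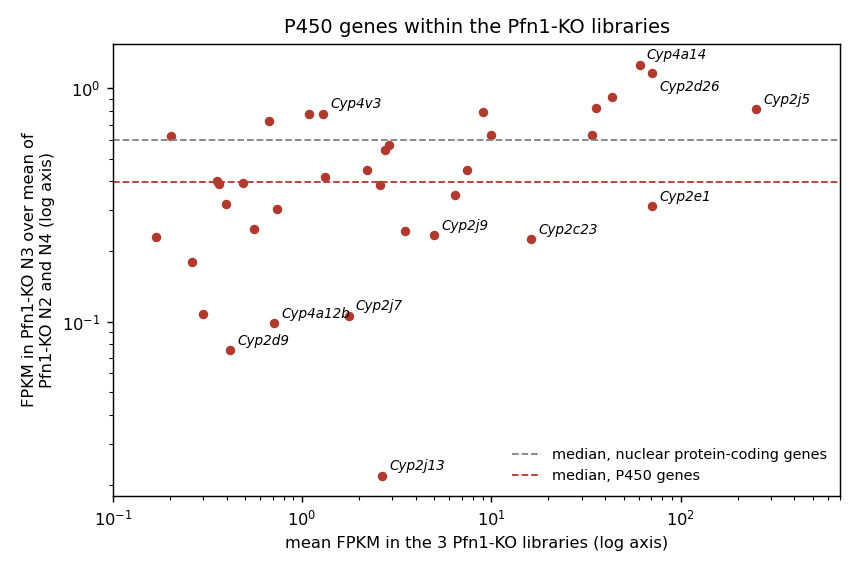
FPKM in KO N3 over the mean of KO N2 and KO N4 (y, log axis) against the mean FPKM in the 3 *Pfn1*-KO-labelled libraries (x, log axis), 1 point for each of the 36 P450 genes. The P450 median (red dashed line, 0.397) lies under that of nuclear protein-coding genes (grey dashed line, 0.599), *Cyp2j13* is lowest at 0.0219, and *Cyp4a14* and *Cyp2d26* are the 2 points above 1.

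The 5 leading genes, *Cyp2j5*, *Cyp2e1*, *Cyp2d26*, *Cyp4a14* and *Cyp4a10*, made up 74.6%, 81.8% and 74.6% of all P450 FPKM in KO N2, KO N3 and KO N4. In the order of mean level *Cyp2j5* was followed by *Cyp2e1*, *Cyp2d26*, *Cyp4a14*, *Cyp4a10*, *Cyp2j11*, *Cyp4a31* and *Cyp2c23*, then by *Cyp1b1* and *Cyp2j6* at about 10 FPKM. From *Cyp2e1* downward each gene overlapped the next in its values in the *Pfn1*-KO-labelled libraries, so the order of neighbours is not firm. Levels of close relatives carry a further limit, since reads shared between them could have been assigned to either or to none. Of 100-base transcript windows, 36.2% were shared with another gene for *Cyp4a12b*, 35.4% for *Cyp2c69*, 18.2% for *Cyp4a32*, 12.2% for *Cyp4a10*, 12.1% for *Cyp2a5*, 11.2% for *Cyp2a4* and 7.33% for *Cyp4a31*, and 0% for *Cyp2j5*, *Cyp2j11*, *Cyp2c23* and *Cyp4a14*. Gene spans of 13 of the 36 members overlap another annotated gene, among them an antisense gene at *Cyp2u1* and a lincRNA on the other strand at *Cyp2s1*, and counting by strand is not given in the sources used here.

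Proteins that pass electrons to P450 enzymes, together with proteins that bind them such as *Pgrmc1*, are given by 9 genes, all tested. Of these 7 were called higher, 1 lower and 1 neither, beside 70.1% higher and 2.13% lower of all tested genes, and after quantile normalization 2 were higher and 1 lower. *Por*, the main electron donor of P450 enzymes in the endoplasmic reticulum, was at 20.5, 21.9 and 16.1 FPKM in the *Pfn1*-KO-labelled libraries, against 1.47 and 1.31 FPKM in the controls. It rose with a log2 fold change of 3.09 (standard error 0.41, limma adjusted p = 0.00171), a call that quantile normalization ended (1.03, limma adjusted p = 0.139). *Cyb5r3*, which reduces cytochrome b5, was far lower in the *Pfn1*-KO-labelled libraries, at 23.6, 21.3 and 22.9 FPKM, against 219 and 380 FPKM in the controls. Its log2 fold change was -3.62 (standard error 0.56, limma adjusted p = 0.00249), and it was called lower in every alternative run (log2 fold change -5.41 to -2.91). It was thus the one partner read well in both controls, with values of the *Pfn1*-KO-labelled libraries close together.

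*Cyb5b*, a cytochrome b5 of the mitochondrial outer membrane, was at 116, 48.2 and 107 FPKM in the *Pfn1*-KO-labelled libraries, against 2.45 and 1.62 FPKM in the controls (log2 fold change 4.83, standard error 0.59, limma adjusted p = 0.00154). *Pgrmc1*, a haem-binding membrane protein that binds P450 enzymes, was at 121, 47.1 and 72.8 FPKM, against 0.931 and 3.78 FPKM in the controls (log2 fold change 4.64, standard error 0.66, limma adjusted p = 0.00194). Both calls held under quantile normalization, and that of *Cyb5b* was lost in limma-voom on recovered reads (5.35, adjusted p = 0.0998). *Fdxr*, the reductase of mitochondrial P450 enzymes, was at 2.44, 2.54 and 1.71 FPKM in the *Pfn1*-KO-labelled libraries, against 5.47 and 0 FPKM in the controls, and did not pass (limma adjusted p = 0.697).

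**Figure D5:**
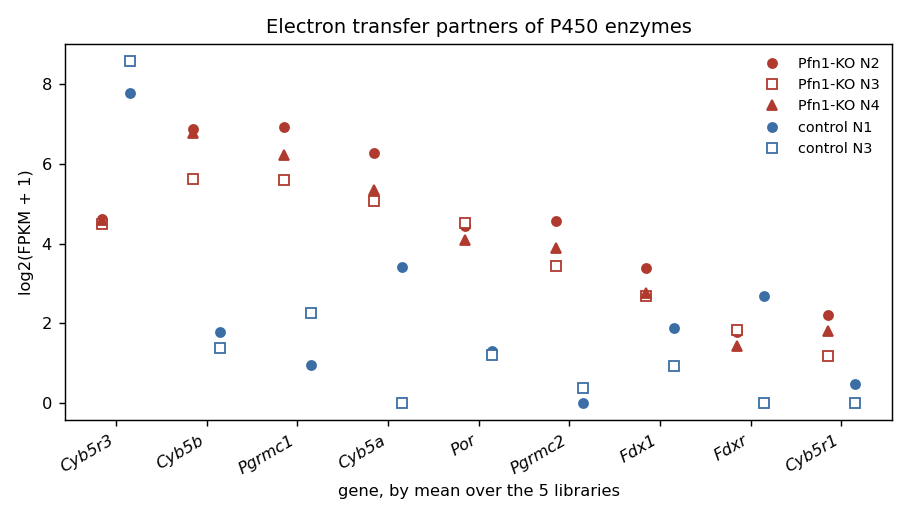
Level of the 9 listed partners of P450 enzymes, as log2(FPKM + 1), in each library (red for *Pfn1*-KO-labelled, blue for control). Genes are ordered by mean level over the 5 libraries. *Cyb5r3* is the gene with both control points, at 219 and 380 FPKM, above all *Pfn1*-KO points, at 21.3 to 23.6 FPKM.

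Haem, the cofactor of every P450 enzyme, is made by one set of enzymes and broken down by the haem oxygenases, and the 10 genes of both kinds were all tested. Of them 7, *Hmox1* and *Hmox2* among these, were called higher and 0 lower, near the 70.1% of all tested genes. After median-ratio scaling 3 were higher and 1 lower. The call of *Hmox2*, at 5.42 and 0 FPKM in the controls, was kept in only 5 of 14 alternative runs. *Alas1*, its rate-limiting enzyme outside blood cells, was at 14.9, 14.5 and 13.5 FPKM in the *Pfn1*-KO-labelled libraries and listed at 0 in both controls (limma adjusted p = 0.0015). *Cpox* was at 8.64, 8.78 and 7.40 FPKM in the *Pfn1*-KO-labelled libraries, against 9.31 and 22.5 FPKM in the controls, and did not pass (limma adjusted p = 0.215), but was called lower after median-ratio scaling (-2.43, limma adjusted p = 0.0208), after rescaling to nuclear protein-coding genes (-1.74, limma adjusted p = 0.0262) and without control N1 (-1.35, limma adjusted p = 0.0434). *Alad* was at 13.3, 13.2 and 9.02 FPKM in the *Pfn1*-KO-labelled libraries, against 0.654 and 13.6 FPKM in the controls, and did not pass either (limma adjusted p = 0.197), except after TPM rescaling (2.28, limma adjusted p = 0.0382) and without control N3 (2.94, limma adjusted p = 0.00158). After quantile normalization 1 haem gene was called higher and 1, *Cpox*, lower (-2.43, limma adjusted p = 0.0225).

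A list of P450 genes outside the rule held families with a number of 2 digits, and also *Tbxas1* and *Ptgis* of single-digit families. Of its 18 genes 10 had values and 8 were tested, with 7 called higher and 0 lower (1 and 1 after quantile normalization). The share of all tested genes called higher was 70.1%. *Tbxas1* was among the 7 called higher, and *Ptgis* was not tested. *Cyp24a1*, which inactivates vitamin D, was at 19.4, 8.35 and 16.5 FPKM, and *Cyp27b1*, which activates it in the proximal tubule, at 10.3, 12.5 and 7.37 FPKM in the *Pfn1*-KO-labelled libraries, both with 0 in both controls (limma adjusted p = 0.00152 for *Cyp24a1* and 0.0015 for *Cyp27b1*). *Cyp51*, of sterol synthesis, was at 13.7, 4.34 and 18.3 FPKM, against 1.29 and 0 FPKM in the controls (log2 fold change 2.93, standard error 0.68, limma adjusted p = 0.0095). The *Cyp51* call was lost after median-ratio scaling (limma adjusted p = 0.0644) and quantile normalization (limma adjusted p = 0.335), in limma-voom on recovered reads (adjusted p = 0.0956) and without KO N2 (limma adjusted p = 0.0595), and that of *Cyp27b1* after quantile normalization (limma adjusted p = 0.0775). *Cyp51* and *Cyp24a1* were lowest in KO N3, as were most genes of the single-digit families, while *Cyp27b1* was highest there.

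Of the receptors and factors that control P450 genes, 17 of 19 were tested, with 13 called higher and 0 lower, and 3 higher after quantile normalization, beside 70.1% and 6.99% of all tested genes called higher. *Hnf4a*, a factor of proximal tubule and liver that also stands in the proximal tubule list, was at 209, 152 and 180 FPKM in the *Pfn1*-KO-labelled libraries, against 14.7 and 4.79 FPKM in the controls (log2 fold change 4.24, standard error 0.64, limma adjusted p = 0.00231). *Ppara* was at 29.3, 29.97 and 26.5 FPKM, against 2.41 and 2.51 FPKM in the controls (log2 fold change 3.09, standard error 0.42, limma adjusted p = 0.00179), a call not made after quantile normalization (1.26, limma adjusted p = 0.0811). *Ahr*, the aryl hydrocarbon receptor, was at 3.52, 3.99 and 3.53 FPKM in the *Pfn1*-KO-labelled libraries and listed at 0 in both controls (limma adjusted p = 0.00178), a call lost after quantile normalization (limma adjusted p = 0.312). Unlike most P450 genes, *Ppara* and *Ahr* were not lowest in KO N3.

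Genes that make or use the products of arachidonic acid and of epoxides had 9 of 14 tested, with 8 called higher and 0 lower (2 and 1 after quantile normalization), beside 70.1% of all tested genes higher. *Ephx2*, the soluble epoxide hydrolase that turns epoxides of arachidonic acid into diols, was at 28.9, 57.7 and 35.8 FPKM in the *Pfn1*-KO-labelled libraries, against 0 and 0.741 FPKM in the controls (log2 fold change 4.93, standard error 0.52, limma adjusted p = 0.0015). KO N3 was highest for *Ephx2* and lowest for the epoxygenases *Cyp2j5* and *Cyp2c23*. Conjugation enzymes act after P450 enzymes on drugs and toxins, and their list here also holds *Nqo1* and Fmo genes, which are not conjugation enzymes. Of the list 33 of 39 genes were tested, with 27 called higher and 0 lower (12 and 1 after quantile normalization), beside the same share of all genes. *Sult1d1*, a sulfotransferase, was highest of these at 296, 563 and 164 FPKM in the *Pfn1*-KO-labelled libraries, against 3.86 and 0.820 FPKM in the controls (log2 fold change 6.67, standard error 0.76, limma adjusted p = 0.0015), and its call was lost in limma-voom on recovered reads (7.49, adjusted p = 0.168).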

How the data were processed

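Podocyte TRAP RNA of 3 *Pfn1*-KO and 2 control samples, each pooled from 3 mice, was sequenced. Reads were trimmed (fastp 0.20), aligned to GRCm38.p6 (STAR 2.7.9), counted per gene (featureCounts 2.0.0) and tested (DESeq2 1.30.1) by the authors, according to their processing notes. The deposited unit is FPKM, computed by the authors. Their methods name a TPM step, but column sums differ between libraries, and FPKM was therefore the unit used. Because of a low-count filter by the authors, genes with few reads are not in the table.

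Columns were assigned to a group by the genotype in their names, and to no single sample, since the column numbers are not the replicate numbers of the labels. 0 columns belonged to other samples. Gene annotation was GENCODE vM21 (20985 IDs found), while the authors used a later release. Library sizes were estimated here, as the size of each library at which FPKM times exon length came closest to whole reads. With them whole reads, to within 0.02 of a read, were returned for 20618 genes, including all 36 P450 genes. The sizes were fitted to that outcome, so it is no independent check of them. The estimated sizes were 18186900 to 24871893 reads. A single read of a 2-kilobase gene therefore equals 0.0201 to 0.0275 FPKM, and limits from a count of 0 cover counting error only.

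Groups were compared in R 4.3.3 by limma 3.58.1 with empirical Bayes and a mean-variance trend. The values were log2(FPKM + 1), the pseudocount being 1. A gene entered when 2 or more libraries reached 1 FPKM (14631 genes), and two-sided p-values were Benjamini-Hochberg adjusted over these, with a threshold of 0.05. Fold changes on this scale understate the change of low genes. The fit was tested on simulated data, with both groups drawn around the *Pfn1*-KO means and 200 genes changed. Those data lack the shift of most genes and the many zeros of the controls, so they cannot vouch for the P450 calls. With 3 samples against 2 no permutation test can pass 0.05. Promoter windows were searched in Python 3.11.15.

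The members, the gene lists and the tests were chosen with earlier results of these data known. Every member is named, and values in each library were set for members that averaged at least 5 FPKM, were above 0 in a control or were called lower. Values of the other members, which are at 0 in both controls, were added after these were seen. Of each list the 3 genes with the highest mean FPKM could be named. *Por*, *Ahr*, *Ppara*, *Alas1*, *Fdxr*, *Cyb5a*, *Hmox1* and *Kap* were named outside this rule for their roles, after their values were seen. *Tbxas1* and *Ptgis* were named only to state their families. Where both controls are at 0 no fold change from the main fit is given, since the controls list most genes at 0. Medians and the values after quantile normalization include such genes. Alternatives were a filter on genes above 0 in every library, no filter, a pseudocount of 0.1 or 5, array weights, median-ratio scaling, quantile normalization, rescaling to TPM or to nuclear protein-coding genes, limma-voom on recovered reads, and leaving out each library.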

Additional observations from a re-analysis of the deposited data

How the results depend on the processing

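The count of P450 genes called higher was 20 and ran from 18 to 22 when each library was left out in turn. It was 2 with the filter on genes above 0 in every library, which only *Cyp2j5* and *Cyp2j11* pass, 5 after quantile normalization, and 19 to 26 in the other alternatives. The count called lower was 0 in every alternative run. Of all genes, 10251 were called higher, 2440 among genes above 0 in every library, 1023 after quantile normalization, and 6446 (without KO N2) to 10698 (without KO N3) when a library was left out. Calls lower were 312, and 905 after median-ratio scaling, 1806 after quantile normalization, 98 after TPM rescaling, 620 after rescaling to nuclear protein-coding genes, 207 in limma-voom, and 136 (without KO N2) to 475 (without control N1) when a library was left out, with 155 without KO N4. The median log2 fold change of all genes was 1.01 after median-ratio scaling, 1.29 after rescaling to nuclear protein-coding genes and 2.93 after TPM rescaling. The cause of these shifts was not tested.

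Reversed under quantile normalization were *Cyp2a5* (-0.023), *Cyp2j13* (-0.094), *Cyp2j7* (-0.19), *Cyp2s1* (-0.31), *Cyp4f16* (-0.29), *Cyp7b1* (-0.38), *Cyp4v3* (-1.17), *Alad* (-0.55) and *Pfn1* (-0.36). After median-ratio scaling *Cyp4v3* (-0.36), *Alad* (-0.11) and *Pfn1* (-0.70) reversed, after rescaling to nuclear protein-coding genes *Cyp4v3* (-0.14), and when a library was left out *Cyp4v3* ranged from -0.46 (without control N3) to 1.19 and *Alad* from -0.20 (without control N1) to 2.94. None of the reversed values passed the test. Genes at 0 in both controls share a level above 0 after quantile normalization, so their reversals can follow from the method. The 5 P450 genes called under quantile normalization and the lower call of *Cyb5r3* were also called when any 1 library was left out. Leaving out KO N3 added *Cyp2j7* and *Cyp2j13* to the calls, and leaving out any other library lost 2 genes; with 1 control left, that library was assumed to vary like the others. No paired analysis was possible because the columns carry no replicate number of the labels, so the planned fit with a replicate block was not run. Depth limits the 13 genes below the filter, several with fewer than 20 reads in a library.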

Other observations

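Genes of the sex chromosomes also differed between the *Pfn1*-KO-labelled libraries. The summed FPKM of the Y-linked genes *Ddx3y*, *Eif2s3y*, *Kdm5d* and *Uty* was 47.9, 19.8 and 41.8 in KO N2, KO N3 and KO N4, against 7.16 and 7.93 in the controls. *Xist*, transcribed from the inactive X chromosome of females, was at 2.00, 3.35 and 0.484 FPKM in the *Pfn1*-KO-labelled libraries, against 0 and 0.00244 FPKM in the controls. Each library pools 3 mice, and the labels give no sex. KO N3 had the lowest Y-linked sum and the highest *Xist*, and KO N4 the lowest *Xist* of the *Pfn1*-KO-labelled libraries. For scale, KO N3 was lowest for 71.6% of all nuclear protein-coding genes, so a low sum there is not particular to Y-linked genes. *Cyp4a12b*, *Cyp2d9* and *Cyp2e1*, known in mice for higher levels in males (*Cyp2d9* in liver), were lowest in KO N3 and highest in KO N4, at 0.940, 0.101 and 1.10 FPKM for *Cyp4a12b*, 0.375, 0.0454 and 0.828 FPKM for *Cyp2d9* and 72.0, 28.7 and 112 FPKM for *Cyp2e1*. These 3 genes were picked after their values were seen, and of all 36 members 31 were lowest in KO N3 and 15 highest in KO N4. *Kap*, a kidney gene known to respond to androgen, had the opposite order, at 2402, 3144 and 1190 FPKM. *Cyp2a4*, not among the 3 picked genes, had their order, at 0.349, 0.0463 and 0.506 FPKM. *Cyp2j5* was highest in KO N2, at 272, 217 and 262 FPKM. All mice were 3 weeks old, and whether sex differences in these genes are present at that age was not tested. The part of the makeup of the pools in these values was not tested.

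*Cyb5r3*, singled out here for being lower, had 23.6, 21.3 and 22.9 FPKM in the *Pfn1*-KO-labelled libraries, against 219 and 380 FPKM in the controls, while its partner *Cyb5a*, the cytochrome b5 of the endoplasmic reticulum, had 75.7, 32.4 and 39.8 FPKM in the *Pfn1*-KO-labelled libraries, against 9.72 and 0 FPKM in the controls. On the annotation the antisense gene Gm49463 overlaps *Cyb5r3*, and values per gene do not tell the strands apart unless reads were counted by strand.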
